A study of Mus musculus with 3 samples.

Results

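Astrocytes and Bergmann glia, together called astroglia here, were examined in the cerebellum of Eed cKO mice at postnatal day 7 (P7). The cells were chosen by measured values. A cell was counted as astroglial when it held at least 4 unique molecular identifiers (UMIs, counts of single RNA molecules) over Aqp4, Pla2g7, Ednrb, Gfap, Aldoc and Slc1a3, when at least 2 of these 6 genes were seen, and when no UMI came from Olig1, Cldn5, Dcn, Actc1 or C1qa, genes of oligodendrocyte lineage, endothelial, fibroblast, muscle and microglial cells. Of 2408 cells with at least 500 UMIs and at most 10% mitochondrial UMIs, 85 met this rule, 30 in mouse 1, 9 in mouse 2 and 46 in mouse 3. The other 2323 kept cells are called the remaining cells.

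The 3 mice were Math1-Cre/Eed fl/fl, untreated, and each gave 1 Drop-seq library from the cerebellar tissue of one side. Eed encodes a core subunit of Polycomb repressive complex 2 (PRC2), the enzyme complex that places the repressive H3K27me3 mark on histones. Math1-Cre is active in the Atoh1 lineage, chiefly the cerebellar granule neuron progenitors (CGNPs) and their daughters, so the astroglia were not the cells in which Eed was to be deleted, although they lay in a cerebellum where the neighbouring lineage had lost it. All 3 animals carried the deletion, control animals were not analysed here, and every comparison below is between cell groups of the same animals.

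Bergmann glia are the radial astrocytes of the cerebellar cortex. Their cell bodies sit among the Purkinje cells, and their fibres cross the molecular layer, guide granule neurons inward and wrap Purkinje synapses, where they take up glutamate and carry AMPA receptors of their own. Other cerebellar astrocytes fill the granule layer and white matter. Astroglia share a program of water, ion and transmitter transport, lipid carriers and Notch-dependent transcription factors, and part of the population still divides in the first postnatal week.

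The astroglia made up 3.21% of the kept cells of mouse 1 (exact 95% binomial interval 2.18 to 4.55%), 1.62% of mouse 2 (0.743 to 3.05%) and 5.01% of mouse 3 (3.69 to 6.63%), a mean of 3.28% ± 1.70 (SD, n = 3 mice). These intervals cover counting error only, and the shares of mice 2 and 3 lay outside each other's interval. The astroglial UMIs summed to 40359, 8578 and 115703 in mice 1, 2 and 3. Mouse 2 therefore gave the coarsest values, since 3 UMIs there were worth 350 CPM (a gene's UMIs per 1000000 UMIs summed over 1 cell group in 1 mouse). The median astroglial cell held 940, 928 and 1907 UMIs, against 932.5, 862 and 1414 for the remaining cells. No cell barcode was shared between libraries.

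One astroglial cell of mouse 3 stood apart from the rest. It held 21692 UMIs, where the next deepest held 5053, and gave 18.7% of the astroglial UMIs of that mouse. It passed the rule with 4 marker UMIs, which is 0.184 per 1000 of its UMIs against a median of 16.3 over all 85 cells. It also held 867 of the 894 UMIs that the astroglia had of the 7 Purkinje cell genes Calb1, Pcp2, Pcp4, Car8, Itpr1, Slc1a6 and Ppp1r17, while no other astroglial cell held more than 3. It held 0 UMIs of Sparcl1, 2 of Fabp7 and 3 of Apoe. By these values it was more like a Purkinje cell than an astroglial cell. It was kept in the main comparisons because it met the rule. The main values that rest on this cell are given with and without it, and without it the astroglial share was 3.25% ± 1.64 (SD, n = 3 mice).

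Among the markers that chose the cells, Ednrb was seen in 80 of the 85, Slc1a3 in 78, Pla2g7 in 68, Aqp4 in 67, Aldoc in 39 and Gfap in 27. These values describe the rule and were not tested. Summed over the astroglia of mice 1, 2 and 3, the glutamate transporter gene Slc1a3 was at 5748, 4896 and 3284 CPM. The endothelin receptor gene Ednrb was at 2998, 3614 and 3241 CPM. The water channel gene Aqp4 was at 2453, 2098 and 3673 CPM. The intermediate filament gene Gfap was the least even, at 297 and 1331 CPM in mice 1 and 3 and with no UMI in the 9 cells of mouse 2. Of the 85 cells, 17 held all 6 markers and 9 held only 2, and the summed marker count ran from 4 through a median of 17 to 132. At the threshold, 8 cells entered with a sum of 4 and 4 with a sum of 5, while 9 cells with a sum of 3 stayed outside.

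The label was checked on genes that the rule did not use. Fabp7 was seen in 94.8% ± 7.15 of the astroglia, Apoe in 90.7% ± 8.49 and Sparcl1 in 92.6% ± 3.44 (mean ± SD, n = 3 mice), against 6.08% ± 3.27, 15.1% ± 4.57 and 7.69% ± 3.42 of granule lineage cells, which should lack these genes and whose shares give the background. With every cell thinned to 500 UMIs the astroglial shares were 87.1, 77.5 and 90.8%. Of the 85 cells, 73 had a UMI of all 3 genes, 8 of 2 of them and 4 of only 1. One of the last 4, a cell of mouse 3 with 2879 UMIs and 4 marker UMIs, had 1 UMI of Apoe and none of Fabp7 or Sparcl1, and it is among the dividing cells described further on.

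**Figure D1:**
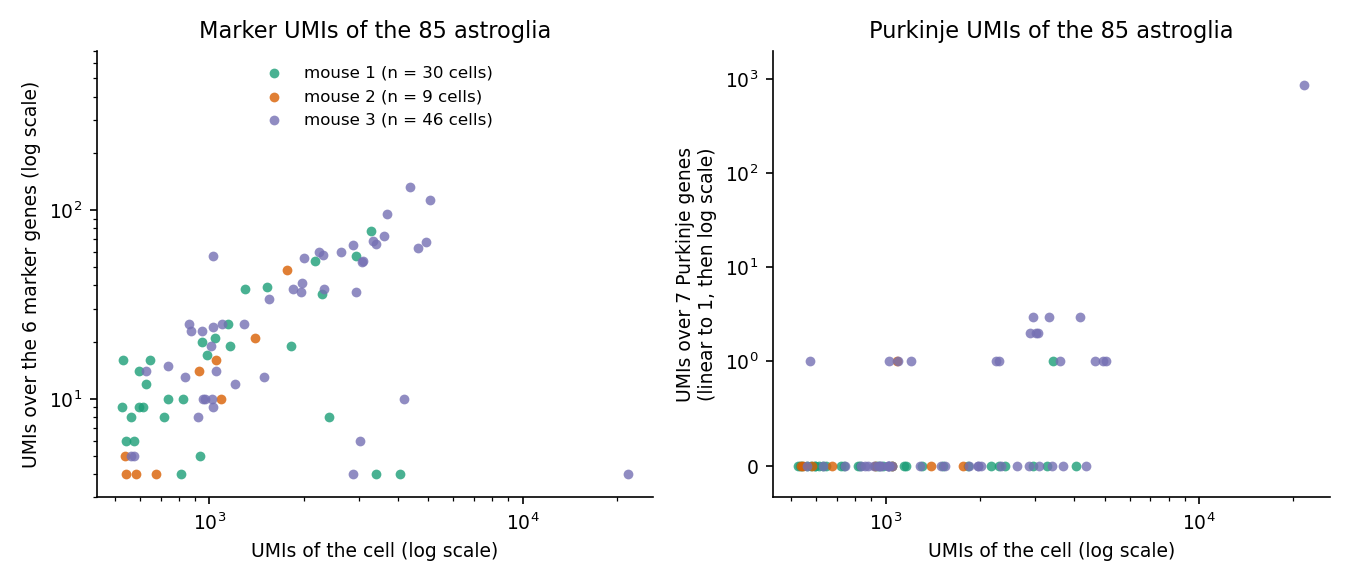
Each point is 1 astroglial cell of mouse 1, 2 or 3, with its total UMIs on the horizontal axis and the summed UMIs of the 6 marker genes on the vertical axis, both on log scales. Most cells rise together on both axes, and the cell of mouse 3 with 21692 UMIs sits alone at the far right with 4 marker UMIs.

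To find which genes set the astroglia apart from the rest of the cerebellum, UMIs were summed per mouse over the astroglia and over the remaining cells, and the 3 astroglial sums were compared with the 3 remaining sums by edgeR's quasi-likelihood test. The 11 genes of the rule were left out. Most genes listed for astroglial metabolism, transport and matrix were higher, while most genes listed for granule neurons, muscle and blood and several Hox genes were lower. Of 6167 genes tested, 5.53% (341) were called higher and 4.23% (261) lower at an adjusted p under 0.05, and the median log2 fold change over all of them was -0.16. Leaving out mouse 3 gave 140 higher and 72 lower, leaving out mouse 1 or 2 gave 100 or 105 lower, and with the mouse as a block 159 were lower. A gene entered this test at about 29.3 CPM in 3 sums, which could be those of 1 group alone, so a gene seen almost only in 1 group had to differ once it was in. Counts over the tested genes of a list are therefore descriptions, and the count over all its genes in the files with no filter on low counts stands beside them. With no filter, 2.07% of 16169 genes were higher and 2.53% lower. In summed counts of this kind, fewer cells with a transcript and less transcript per cell cannot be told apart.

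Lipid carriers were among the abundant transcripts of the astroglia. Fabp7, the brain fatty acid binding protein of radial glia, was at 6616, 9093 and 7467 CPM in mice 1, 2 and 3, against 222, 139 and 335 CPM in the remaining cells (log2 fold change 4.84 ± 0.40 SE, edgeR adjusted p = 1.22e-30). The cholesterol carrier Apoe was at 5674, 10375 and 9464 CPM against 597, 779 and 614 CPM (3.48 ± 0.38 SE, edgeR adjusted p = 7.69e-18). Every astroglial sum of both genes lay far above every remaining sum. Dbi, which binds acyl-CoA esters and is also processed to peptides that act on GABA receptors, rose by 3.59 on the log2 scale, and the secreted chaperone Clu by 5.01. Of the 19 metabolic genes in the files, 17 were tested and 16 rose, and 16 of the 19 were higher with no filter. Among them were Aldh1l1 (4.87), a folate enzyme used as a pan-astrocyte marker, Ndrg2 (4.41), the glutamine synthetase gene Glul (1.43) and Phgdh, the first enzyme of serine synthesis, which was 10.6-fold higher. Psat1, the next step of serine synthesis, did not pass the test (0.47, edgeR adjusted p = 0.698). Without mouse 3 the change of Clu was 3.79 and that of Glul was no longer called (1.24, adjusted p = 0.19), and the latter was also lost without mouse 1 (1.37, adjusted p = 0.096).

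Of the 16 transport genes, 12 were tested and rose, 7 of them having entered through the astroglial sums alone, and 14 of the 16 were higher with no filter. The bicarbonate cotransporter gene Slc4a4 was at 867, 1049 and 674 CPM in the astroglia and 20.3, 15.9 and 28.6 CPM in the remaining cells (5.05). Hepacam, an adhesion protein that anchors the channel-associated protein Mlc1 at astrocyte contacts, was at 347, 350 and 354 CPM against 10.6, 8.81 and 8.46 CPM (36.7-fold), and at 436 CPM in mouse 3 without the deepest cell. Mlc1 itself rose by 5.08 on the log2 scale (4.09 without mouse 3 and 5.69 without mouse 1). Ttyh1, a chloride channel family gene, reached 966, 1399 and 2282 CPM and was 43.0-fold higher. The potassium channel gene Kcnj10 (4.22, and 3.55 without mouse 3), the gap junction gene Gja1 (2.76), the sodium pump gene Atp1b2 (3.49) and the glutamate transporter gene Slc1a2 (2.02) were higher too. Slc1a2, which Bergmann glia carry less of than Slc1a3, was at 322, 117 and 501 CPM and lost its call without mouse 3 (1.57, adjusted p = 0.13).

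**Figure D2:**
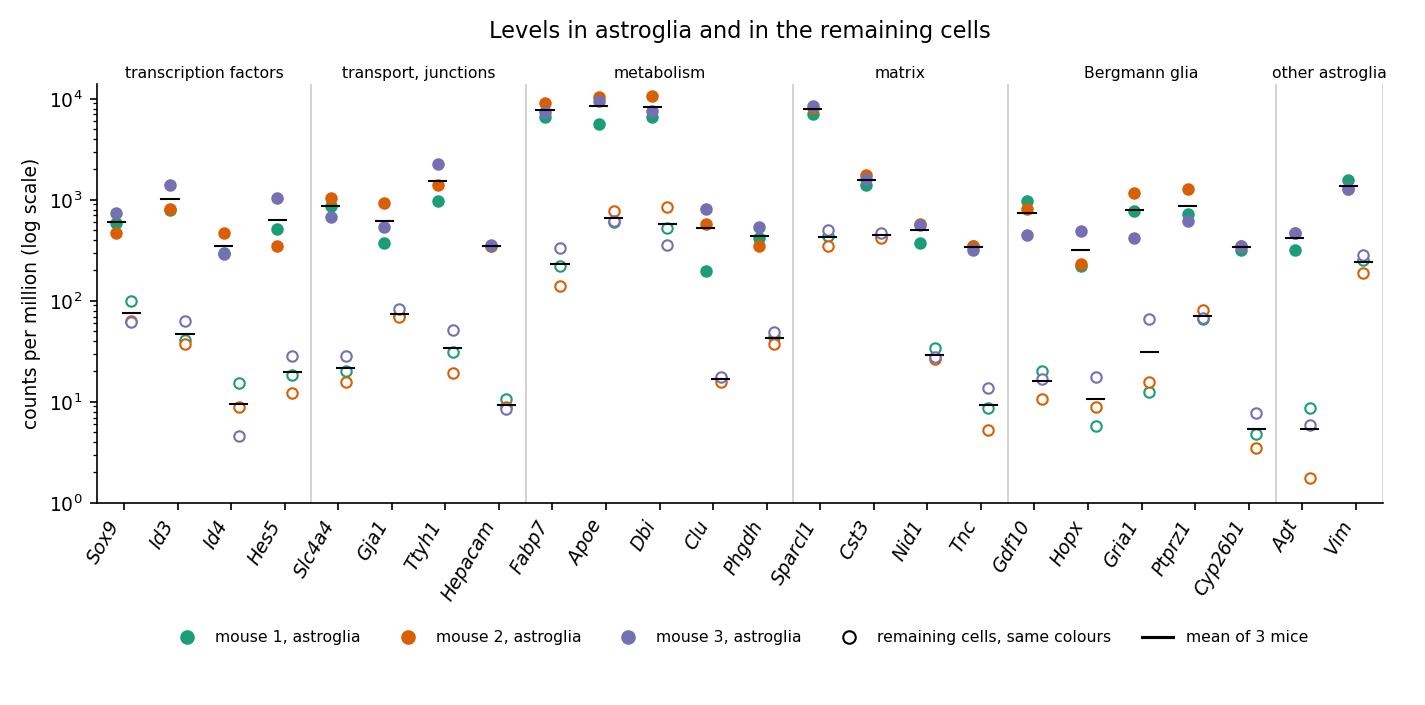
Levels of selected genes outside the rule in CPM on a log scale, with filled points for the astroglia and open points for the remaining cells of each mouse and a line at each mean. For Fabp7, Apoe and Sparcl1 the astroglial points lie between 5674 and 10375 CPM and every remaining point lies below 800 CPM.

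Genes expected of Bergmann glia were high in this population. Gdf10, a secreted factor of the TGF-beta family that marks Bergmann glia in the cerebellum, was at 966, 816 and 449 CPM in the astroglia against 20.3, 10.6 and 16.9 CPM (38.5-fold, edgeR adjusted p = 6.63e-39). Of the 16 genes of the Bergmann glia list in the files, 12 were tested and 11 rose, 9 of the 12 having entered through the astroglial sums alone, and 10 of the 16 were higher with no filter. The genes that rose included the retinoic acid degrading enzyme Cyp26b1 (54.5-fold), the retinoid binding protein Rlbp1 (5.31), the homeodomain gene Hopx (4.99), Mmd2 (4.85) and the receptor phosphatase Ptprz1 (3.30), while Sept4 did not pass the test (0.15, edgeR adjusted p = 0.921). Summed over the list, the astroglia reached 5253, 7111 and 4140 CPM and the remaining cells 348 ± 38.0 CPM (mean ± SD, n = 3 mice). The AMPA receptor gene Gria1 was at 768, 1166 and 423 CPM against 12.6, 15.9 and 65.8 CPM (4.12, and 5.69 without mouse 3), and Gria4 at 273, 233 and 173 CPM against 80.3, 79.3 and 66.4 CPM (1.47, edgeR adjusted p = 0.00643). The call of Gria4 was lost without mouse 1 (1.31, adjusted p = 0.21) or mouse 3 (1.52, adjusted p = 0.16). Gria2, whose subunit makes AMPA receptors impermeable to calcium, ran the other way in mice 1 and 2, with 3 and 0 UMIs, and was at 363 CPM in mouse 3, where 34 of its 42 UMIs came from the deepest cell. With that cell the change of Gria2 did not pass the test (-0.31, edgeR adjusted p = 0.706), and without it Gria2 was lower in the astroglia (-1.90 ± 0.47 SE, edgeR adjusted p = 0.000878).

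Genes of a further astroglial list rose as well, with 6 of 6 tested called and 8 of the 9 in the files higher with no filter. These genes were not shown to be particular to astrocytes outside the Bergmann layer. Agt, the angiotensinogen gene, led the genes with a mean of at least 300 CPM, at 322, 466 and 467 CPM in the astroglia against 8.71, 1.76 and 5.86 CPM in the remaining cells (6.06 ± 0.44 SE, edgeR adjusted p = 6.26e-39). The filament gene Vim was at 1586, 1282 and 1288 CPM against 252, 190 and 282 CPM (5.37-fold). The sphingosine phosphate receptor gene S1pr1 (4.75, and 5.63 without mouse 1) and the membrane protein gene Emp2 (5.49, and 4.86 without mouse 3) were higher too. Neither S1pr1 nor Emp2 is on that list. S100b was at 74.3, 117 and 320 CPM, and its call (2.44) rested on mouse 3, without which it was 0.62 (adjusted p = 0.82).

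Of 15 tested matrix genes, 14 rose, and 16 of the 17 in the files were higher with no filter. Sparcl1, a secreted synapse-promoting protein of astrocytes, was at 7111, 8160 and 8435 CPM in the astroglia and at 438, 352 and 503 CPM in the remaining cells (16.4-fold). The basement membrane gene Nid1 (4.04), tenascin-C, Tnc (4.98), the protease inhibitor Cst3 (1.70) and Sparc (1.66) were also higher. Of 10 genes of FGF signalling, a pathway that maintains Bergmann glia, 3 were tested and rose, and only Spry2 was higher with no filter. They were the receptor Fgfr1 (1.65, edgeR adjusted p = 0.0106) and the feedback inhibitors Spry2 (2.02) and Spred1 (1.67), all of them low, at 21, 32 and 17 astroglial UMIs, and all 3 calls were lost without mouse 3 (adjusted p = 0.46, 0.52 and 0.29 for Fgfr1, Spry2 and Spred1). Fgfr1 and Spred1 also lost their calls without mouse 1 or mouse 2 (adjusted p from 0.057 to 0.17) and with the mouse as a block (adjusted p = 0.056 and 0.055).

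**Figure D3:**
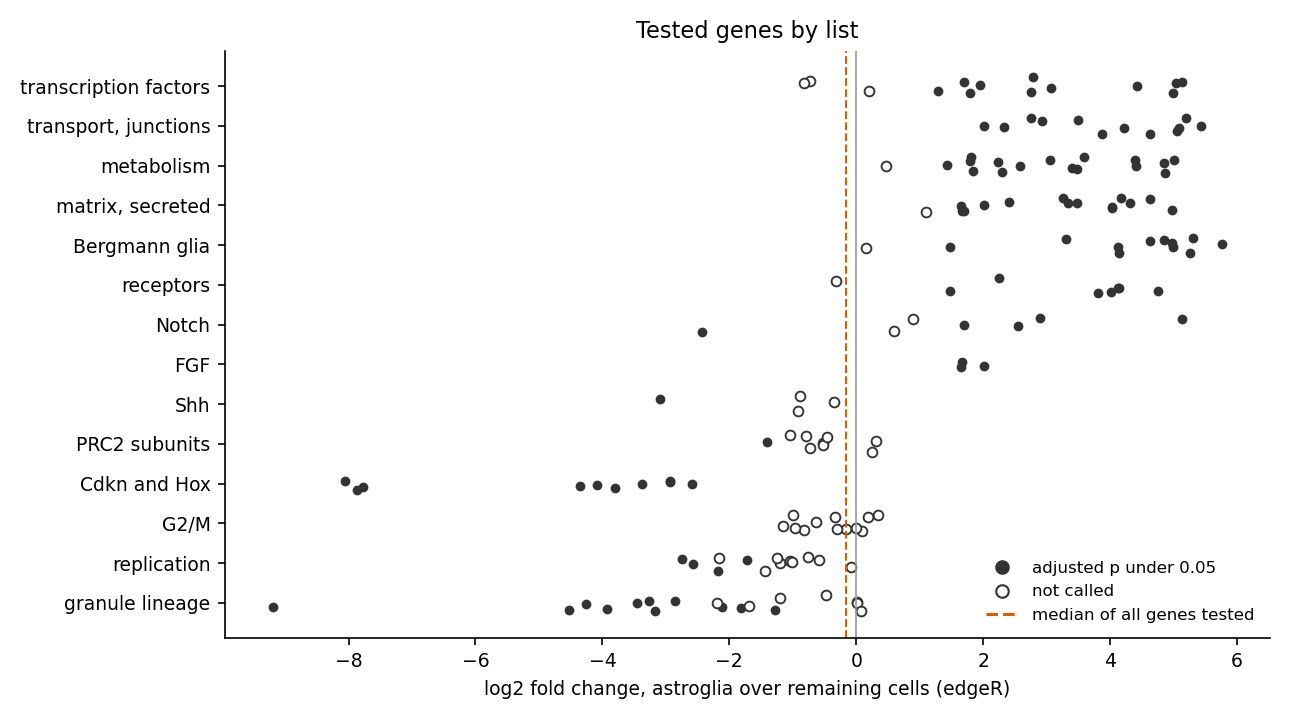
Log2 fold changes of astroglia over remaining cells (horizontal axis) for the tested genes of 14 lists, with 1 point per gene, filled where its adjusted p was under 0.05, and a dashed line at the median of all genes tested. Transport, matrix, Bergmann glia and FGF genes all lie above 0 and the Cdkn and Hox genes all lie below it, while no G2 and M phase gene is filled.

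Notch signalling works in astroglia through a short chain, in which ligands on neighbouring cells bind Notch receptors, proteases of the receiving cell then cut the receptor, and its intracellular part joins the DNA-binding protein RBPJ and switches on Hes and Hey genes. Of the 16 genes on this list 7 were tested, of which 4 rose and 1 fell, and with no filter 5 of the 16 were higher and 1 lower. Both tested receptors were higher, Notch1 at 173, 117 and 147 CPM against 31.0, 22.9 and 24.1 CPM (2.54 ± 0.48 SE, edgeR adjusted p = 4.57e-06) and Notch3 at 10 UMIs in all (2.90). The target Hes5 was at 520, 350 and 1046 CPM against 18.4, 12.3 and 28.6 CPM (5.13 ± 0.37 SE, edgeR adjusted p = 4.48e-39), and Hes1 at 322, 233 and 406 CPM against 117, 123 and 93.1 CPM (1.69, edgeR adjusted p = 7.07e-05). Hes5 was thus 34.9-fold higher and Hes1 3.23-fold. Hey1 (0.60) and the ligand gene Dner (0.90, edgeR adjusted p = 0.682) did not pass the test. All 39 astroglial UMIs of Dner were in mouse 3, where 8 were left without the deepest cell, and its change was then -0.98 (adjusted p = 0.302). Rbpj was the member that fell, with 3 astroglial UMIs (-2.43, edgeR adjusted p = 0.0164), and this call was lost with the mouse as a block (adjusted p = 0.07) and without any 1 mouse (adjusted p from 0.073 to 0.28). Without mouse 3 the calls of Hes1 (1.14, adjusted p = 0.3), Notch1 (2.34, adjusted p = 0.069) and Notch3 (2.57, adjusted p = 0.21) were lost as well, and that of Hes5 was not.

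Hes5 lies at chr4:154960923-154962371 on the plus strand of mm10 in the GENCODE M21 annotation. The 250 bases before its start site, chr4:154960673-154960922 of GRCm38.p6 as RefSeq gives them, are shown because Hes5 had the largest change on the Notch and transcription factor lists, with each match to TGGGAA, the core bases bound by RBPJ, in capitals on either strand (TTCCCA is the match read from the minus strand).
Hes5 promoter: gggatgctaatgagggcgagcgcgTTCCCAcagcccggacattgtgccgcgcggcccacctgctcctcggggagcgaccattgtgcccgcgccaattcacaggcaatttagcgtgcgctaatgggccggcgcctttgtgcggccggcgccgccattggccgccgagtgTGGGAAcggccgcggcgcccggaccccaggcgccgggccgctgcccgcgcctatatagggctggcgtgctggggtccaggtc
The window held 2 matches, the nearer one ending 77 bases before the start site and the farther one 221 bases before it. Of 32851 promoter windows of the same length, 21.6% held at least 1 match and 2.77% held 2 or more. A match is a description of the letters and not a measured binding site.

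Transcription factor genes of astroglia were higher in 11 of 14 tested, and in 11 of the 17 in the files with no filter. Sox9, which sets the glial fate, was at 595, 466 and 743 CPM against 101, 63.4 and 61.8 CPM (3.07, edgeR adjusted p = 6.6e-17). Id3 was at 793, 816 and 1417 CPM against 40.6, 37.0 and 63.8 CPM (21.5-fold), and the stem cell factor Sox2 rose by 1.79. Id4 rose by 5.03 (4.44 without mouse 3 and 5.67 without mouse 1). The 3 nuclear factor I genes, which drive gliogenesis but are also used by granule neurons, were the exceptions. Nfib was at 1883, 933 and 1193 CPM in the astroglia and 2266, 1793 and 2423 CPM in the remaining cells (-0.72, edgeR adjusted p = 0.202). It was called lower when the exclusion genes were not used (-0.84, adjusted p = 0.048) and against granule lineage cells alone (-0.90, edgeR adjusted p = 0.0118). The call of Nfib against granule lineage cells was lost without the deepest cell (-0.77, edgeR adjusted p = 0.0532). Nfia (0.20) and Nfix (-0.83) were not called against the remaining cells. The sign of Nfia turned when low genes were kept or cells were thinned.

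Of 13 genes of Sonic hedgehog signalling, the mitogenic pathway of CGNPs, 4 were tested, 3 of them having entered through the remaining cells alone, and with no filter 1 of the 13 was lower and none higher. That gene, Sfrp1, fell, from 211, 234 and 182 CPM in the remaining cells to 0, 0 and 34.6 CPM in the astroglia (-3.08, edgeR adjusted p = 4.03e-05), and without mouse 3 the astroglia held no UMI of it (adjusted p = 0.0046). The granule list had 11 of 18 genes lower and none higher, and 13 lower with no filter, although 15 of the 18 had entered through the remaining cells alone. Neurod1 was at 49.6, 0 and 51.9 CPM against 877, 1316 and 1191 CPM (-4.53). Zic1, a cerebellar transcription factor that granule cells and other cerebellar cells carry, kept a level of 471, 350 and 354 CPM in the astroglia against 965, 863 and 945 CPM (-1.27, edgeR adjusted p = 0.0106), a call lost without mouse 1 (-1.44, adjusted p = 0.14) or mouse 3 (-1.26, adjusted p = 0.15). The largest drops among abundant genes were otherwise in genes of other cells, namely the globins Hba-a1 (-4.62) and Hbb-bs (-3.00), the muscle genes Tnnc2 (-3.98) and Mylpf (-3.50), the imprinted growth genes Igf2 (-4.33) and H19 (-2.84), and Nhlh2 (-3.92). Without mouse 3 these were -3.90 for Hba-a1, -3.15 for Tnnc2, -4.95 for Igf2 and -4.47 for H19, and Tnnc2 was at -5.03 without mouse 1. With cells thinned to 500 UMIs, Tnnc2 (-2.61, adjusted p = 0.13), Mylpf (-2.11, 0.11) and H19 (-2.23, 0.082) were not called.

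Markers of most other cell types were low in the astroglia. For most of these types the rule itself excluded cells through 1 gene, and nearly all of their tested genes had entered through the remaining cells alone, so that their falls are no separate finding. With no filter, 8 of 8 muscle, 4 of 5 blood, 6 of 7 myeloid, 2 of 7 endothelial, 3 of 5 fibroblast, 3 of 11 oligodendrocyte and 3 of 7 interneuron genes were lower and none was higher. Summed over their lists, the astroglia held 11.1 ± 12.6 CPM of myeloid, 117 ± 31.1 CPM of muscle and 258 ± 102 CPM of oligodendrocyte genes (mean ± SD, n = 3 mice). None of the 6 pericyte and 6 ependymal genes was called, with or without the filter. The pericyte list ran unevenly over the mice, at 669, 0 and 43.2 CPM in the astroglia against 345 ± 111 CPM in the remaining cells (mean ± SD, n = 3 mice), and the ependymal list at 124, 0 and 34.6 CPM against 150 ± 142 CPM. The 7 Purkinje genes were at 24.8 to 7709 CPM over the mice, and at 266 CPM in mouse 3 without the deepest cell.

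Genes that PRC2 is known to hold silent were examined next, since the mice were made to lose Eed in the granule lineage. The list holds the CDK inhibitor genes Cdkn2a, Cdkn2b, Cdkn1a and Cdkn1c and 25 Hox genes. Summed over it, the astroglia held 273, 350 and 225 CPM in mice 1, 2 and 3, which is 11, 3 and 26 UMIs. The granule lineage cells, taken as the 481 kept cells with at least 3 UMIs over Atoh1, Barhl1, Neurod1, Cntn2, Nhlh1 and Mfap4, from at least 2 of them, and with no UMI of Aqp4, Gad1, Pax2 or the 5 exclusion genes of the astroglial rule, held 2060 ± 158 CPM, the oligodendrocyte lineage cells 353 ± 156 CPM and all remaining cells 2086 ± 204 CPM (mean ± SD, n = 3 mice). Of the 27 genes of the list in the files, 10 were lower and none higher than in the remaining cells with no filter on low counts. Only 10 were tested with the filter, 9 of which had entered through the remaining cells alone, so that they came out lower adds nothing to this count. Against the granule lineage cells alone, 2939 genes were tested, of which 10.3% (304) were higher and 7.01% (206) lower with a median of -0.08. With no filter 2.87% of all genes were higher there and 2.05% lower, and 9 of the 27 genes of the PRC2 target list were lower and none higher. With the filter 10 of the 27 were tested, again 9 of them through the granule lineage sums alone.

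Cdkn2a, which encodes the CDK4 and CDK6 inhibitor p16INK4A and the p53 activator p19ARF, had 1 UMI in all astroglia. Its levels were 24.8, 0 and 0 CPM, against 235, 326 and 157 CPM in granule lineage cells (-4.93 ± 0.86 SE, edgeR adjusted p = 5.93e-06). The call held without mouse 3 (-3.66, adjusted p = 0.0045), whereas the call against all remaining cells (-4.35) did not (-3.09, adjusted p = 0.14). Hoxa7 was at 24.8, 0 and 17.3 CPM against 286, 266 and 300 CPM (-3.79), and Hoxa9 at 0, 0 and 8.64 CPM against 167, 228 and 232 CPM (-4.82), with no UMI left without mouse 3 (adjusted p = 0.0071). Hoxa5, Hoxa10 and Hoxb7 had no UMI in the astroglia, and with 3 UMIs over all astroglia as a floor they were at least 6.80-fold, 5.66-fold and 6.16-fold lower than in granule lineage cells. Hoxb8 (-4.13) and Hoxc9 (-4.27) had 1 UMI each, and the call of Hoxb8 was lost without mouse 3 (-2.68, adjusted p = 0.095). Cdkn1a, the p53 target p21, was at 24.8, 0 and 43.2 CPM against 120, 152 and 165 CPM (-1.88, edgeR adjusted p = 0.0193), a call lost without any 1 mouse (adjusted p from 0.078 to 0.11) and at -2.59 without the deepest cell. Cdkn1c, an imprinted gene also used in normal glia, behaved otherwise. It was at 173, 350 and 104 CPM in the astroglia and 201, 190 and 212 CPM in granule lineage cells, a difference that did not pass the test (-0.39, edgeR adjusted p = 0.604, and 0.09 without mouse 3). Against all remaining cells, at 774, 890 and 945 CPM, it was lower (-2.59, edgeR adjusted p = 2e-07).

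**Figure D4:**
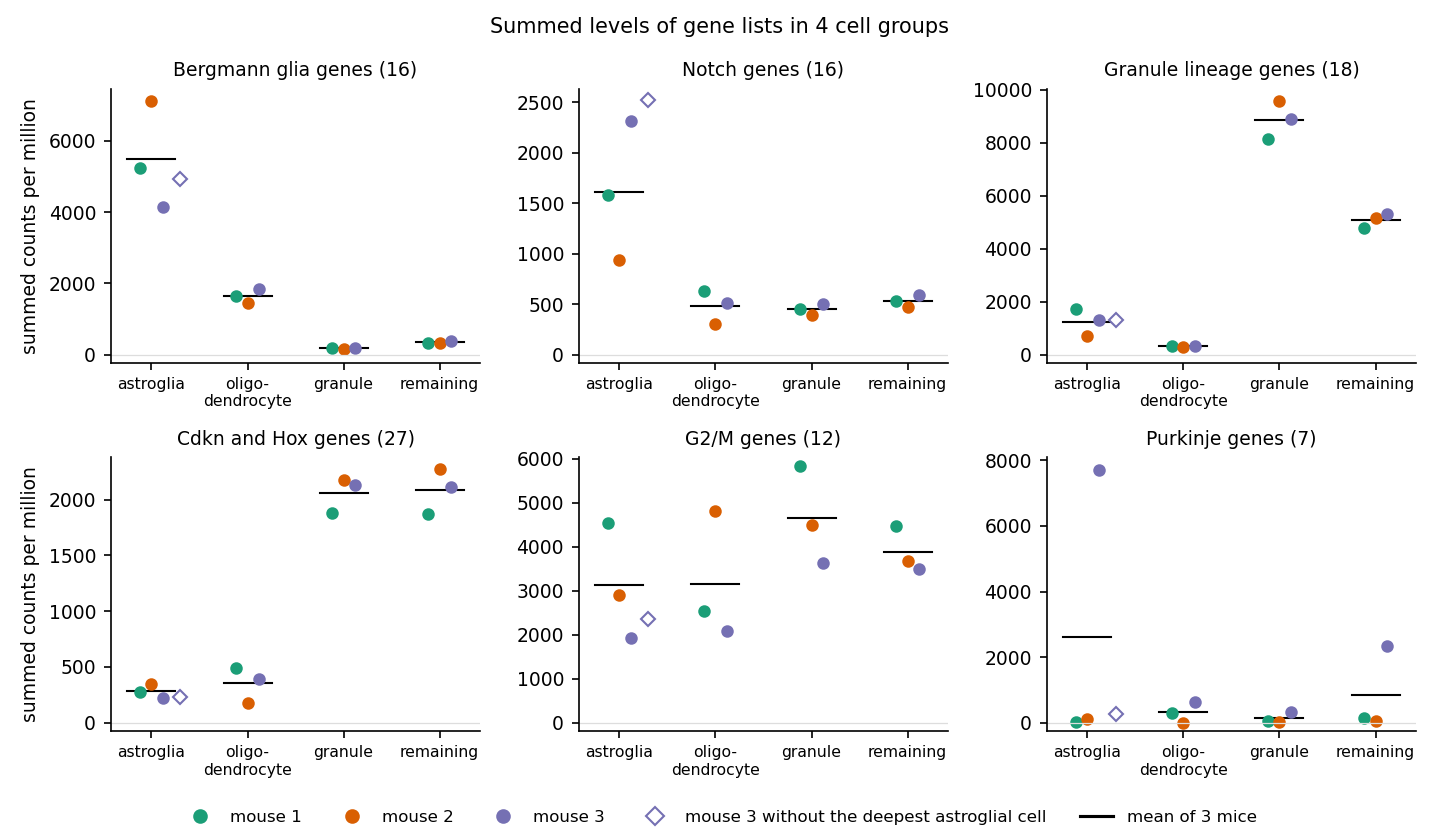
Summed CPM of the Bergmann glia, Notch, granule lineage, Cdkn and Hox (the PRC2 targets), G2 and M phase and Purkinje lists in 4 cell groups, with 1 point per mouse, a line at the mean and an open diamond for the astroglia of mouse 3 without the deepest cell. The astroglial points of the Cdkn and Hox genes lie between 225 and 350 CPM, below every granule lineage point, and the Purkinje point of mouse 3 falls from 7709 to 266 CPM without that cell.

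Among the PRC2 genes themselves, Eed was scarce. It had 2, 1 and 1 UMIs in the astroglia of mice 1, 2 and 3, which is 49.6, 117 and 8.64 CPM, against 43.5, 29.9 and 36.5 CPM in the remaining cells (-0.53, edgeR adjusted p = 0.768), and its sign turned without mouse 3 (0.50). At 4 UMIs a difference in Eed was not detectable at this depth. Ezh2, the catalytic subunit, was at 396, 350 and 242 CPM against 463, 421 and 394 CPM (-0.52, edgeR adjusted p = 0.472). Of 9 PRC2 genes tested against the remaining cells, only Rbbp7 was called, being lower (-1.40, edgeR adjusted p = 0.0193). Its call was lost with the mouse as a block (adjusted p = 0.09) and without mouse 1 (-0.98, adjusted p = 0.46) or mouse 2 (-1.33, adjusted p = 0.14), with -3.14 without mouse 3. With no filter on low counts 2 of the 10 PRC2 genes in the files, Rbbp7 and Rbbp4, were lower. Against granule lineage cells alone 5 PRC2 genes were tested and Rbbp4 was lower (-1.21, edgeR adjusted p = 0.0156). Without the deepest cell Rbbp4 was at -1.05 (edgeR adjusted p = 0.0383). Rbbp7 was not called against granule lineage cells (-1.09, edgeR adjusted p = 0.0766).

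The oligodendrocyte lineage is the other large glial family of the tissue, and the comparison with it asked what was astroglial rather than glial. It was taken as the 53 kept cells (20, 13 and 20 per mouse) with at least 4 UMIs over 7 genes of that lineage, among them Olig1, Olig2, Pdgfra and Sox10, from at least 2 of the 7, and with no UMI of Aqp4, Cldn5, Dcn, Actc1 or C1qa. Of 693 genes tested, 10.7% (74) were higher in the astroglia and 5.34% (37) lower, with a median log2 fold change of 0.00. Genes of the astroglial lists were higher here too, but most of their tested genes had entered through the astroglial sums alone. With no filter, where 0.857% of all genes were higher and 0.375% lower, 11 of 19 metabolic, 10 of 17 matrix, 8 of 16 Bergmann glia and 7 of 16 transport genes were higher.

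Vim was at 1586, 1282 and 1288 CPM in the astroglia and had no UMI in the oligodendrocyte lineage cells, which makes it at least 39.2-fold higher with 3 UMIs over those cells as the floor. Gdf10 (at least 17.1-fold), Nid1 (at least 14.9-fold), Agt (at least 12.4-fold), Cyp26b1 (at least 9.79-fold), Sned1 (at least 9.62-fold), Tnc (at least 9.44-fold) and Id4 (at least 8.74-fold) were likewise without a UMI there. Apoe was higher by 5.95 ± 0.47 SE on the log2 scale and Sparcl1 by 5.31 ± 0.44 SE. Fabp7 was shared to a greater extent, with 1251, 904 and 2488 CPM in the oligodendrocyte lineage cells, and was higher in the astroglia by 2.38 (edgeR adjusted p = 1.91e-07). Hes5 was higher by 4.45 (5.59 without mouse 1) and Gria1 by 4.83 (4.08 without mouse 1), with no Gria1 UMI in the oligodendrocyte lineage cells of mice 1 and 2.

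The nuclear factor I genes, which did not rise against the remaining cells, were higher than in the oligodendrocyte lineage cells. Nfib was at 487, 542 and 781 CPM there (1.31 ± 0.35 SE, edgeR adjusted p = 0.0027), Nfia rose by 1.47 (edgeR adjusted p = 0.00488) and Nfix by 1.46 (edgeR adjusted p = 0.0464). All 3 calls were lost without mouse 1 (adjusted p = 0.26, 0.28 and 0.38 for Nfib, Nfia and Nfix) or mouse 2 (0.077, 0.1 and 0.071), with DESeq2 (0.061, 0.11 and 0.19) or when low genes were kept (0.25, 0.205 and 0.41), that of Nfib also with thinned cells (0.17), and that of Nfix with the mouse as a block (0.053) or DESeq2 size factors (0.054). Zic1 was higher by 3.15 ± 0.71 SE (edgeR adjusted p = 0.000346, and 4.30 without mouse 1), at 104, 0 and 24.4 CPM in the oligodendrocyte lineage cells.

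Some genes did not differ beyond the spread between mice. Ptprz1, on the Bergmann glia list but also used by oligodendrocyte progenitors, was at 719, 1282 and 614 CPM in the astroglia and 695, 1024 and 1244 CPM in the oligodendrocyte lineage cells (-0.25 ± 0.35 SE, edgeR adjusted p = 0.779). Sox2 (-0.43), S100b (-0.92) and the proteoglycan gene Bcan (-0.47) did not pass the test either. Among the genes lower in the astroglia, Fyn, a kinase of myelinating cells, was at 28.4 ± 30.4 CPM against 942 ± 79.4 CPM (mean ± SD, n = 3 mice, log2 fold change -4.08, and -5.19 without mouse 3). Bcas1 (-6.46), 3110035E14Rik (-7.18), Matn4 (-5.10), Rab33a (-4.13) and Enpp2 (-4.09) were lower, and the myelin-related Pllp and Lims2 had no astroglial UMI and were at least 20.97-fold and 20.3-fold lower. All astroglial UMIs of Bcas1 were in mouse 3 and the single one of 3110035E14Rik was in mouse 1. The change of 3110035E14Rik was -5.46 without mouse 3. The myelin gene Cnp fell by 3.42 (-5.10 without mouse 3 and -2.67 without mouse 1).

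To ask whether Bergmann glia could be told from other astrocytes, the astroglia were divided by Gdf10, which was seen in 39 cells (14, 5 and 20 per mouse) and unseen in 46. No gene of the 275 tested was called in either direction, 0% of them, by edgeR, where 12 had an unadjusted p under 0.05 and the smallest adjusted p was 0.150, nor by DESeq2, where 7 had an unadjusted p under 0.05. The Gdf10-seen cells were deeper, with a median of 1415.5, 1050 and 1907 UMIs against 773, 802 and 1763, so a cell without a Gdf10 UMI need not lack the transcript.

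Of the other 15 Bergmann glia genes in the files 4 were tested, with changes of 2.22 for Gria1, 0.71 for Ptprz1, 0.15 for Mmd2 (-0.12 without the deepest cell) and 0.10 for Rlbp1. None of them was called. In all 3 mice 6 of the 15 were higher in Gdf10-seen cells and none was lower, or 6 and 1 without the deepest cell. Of all 12079 genes with a UMI, most of them with few, 3.38% were higher and 2.69% lower in all 3 mice. Without the deepest cell these shares were 3.69 and 2.70% of 11533 genes. Cyp26b1 did not follow, at 316, 0 and 351 CPM against 330, 767 and 342 CPM. Tnc was at 586, 643 and 395 CPM in Gdf10-seen cells and 55.0, 0 and 271 CPM in the others, and Timp4 at 541, 643 and 263 CPM against 55.0, 0 and 85.5 CPM. Without the deepest cell, which was among the Gdf10-unseen cells, the other cells of mouse 3 stood at 392 CPM for Tnc and 124 CPM for Timp4, so Tnc was then level with the Gdf10-seen cells of that mouse. Gria1 did not pass the test (edgeR adjusted p = 0.150), and did so only when cells more than 4 SD above the median depth were removed (2.57, adjusted p = 0.0402). Hes5 was at 316, 214 and 746 CPM against 770, 511 and 1240 CPM (-0.95, edgeR adjusted p = 0.996), the last being 1795 CPM without the deepest cell.

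Part of the astroglia carried transcripts of dividing cells. Over 12 genes of the G2 and M phases, among them Mki67, Top2a and Cdk1, 53 of the 85 cells had no UMI and 19 had 1 to 3. The other 13 had 5 to 84 UMIs, from at least 3 of the 12 genes, and held 402 of the 431 UMIs of the list (93.3%), so these transcripts were concentrated in few cells rather than spread thinly. The 13 cells were 4 of 30, 3 of 9 and 6 of 46 in mice 1, 2 and 3. Cells with at least 3 of the 12 genes thus made up 19.9% ± 11.6 of the astroglia, 24.8% ± 5.34 of the granule lineage cells and 21.03% ± 1.78 of the oligodendrocyte lineage cells (mean ± SD, n = 3 mice). With every cell thinned to 500 UMIs the shares were 19.2% ± 12.3, 18.5% ± 5.62 and 15.1% ± 0.222, and in both forms the astroglial spread between mice covered the other means.

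Most of the dividing cells carried astroglial genes outside the rule as well. Of the 13, Sparcl1 was seen in 11, Fabp7 in 10, Apoe in 10 and Gdf10 in 8, and of the other 72 astroglia, Fabp7 was seen in 70 and Gdf10 in 31. Aldoc was seen in 1 of the 13 and in 38 of the other 72, and Gfap in 2 and 25. Their median summed marker count was 8, against 19 in the others, although their median depth was 1497 UMIs against 1094.5. Since the rule asks for a marker sum, 5 of the 12 cells with a sum of 4 or 5 were dividing and 8 of the 73 with 6 or more. Dividing cells of 3409 and 4057 UMIs in mouse 1 and of 2879 UMIs in mouse 3 held only 4 marker UMIs each. That is 1.17, 0.986 and 1.39 per 1000 UMIs, against a median of 16.3 over all astroglia. They held 58, 84 and 33 UMIs of the G2 and M phase genes. Their astroglial label is thus weak, and the dividing share includes them.

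**Figure D5:**
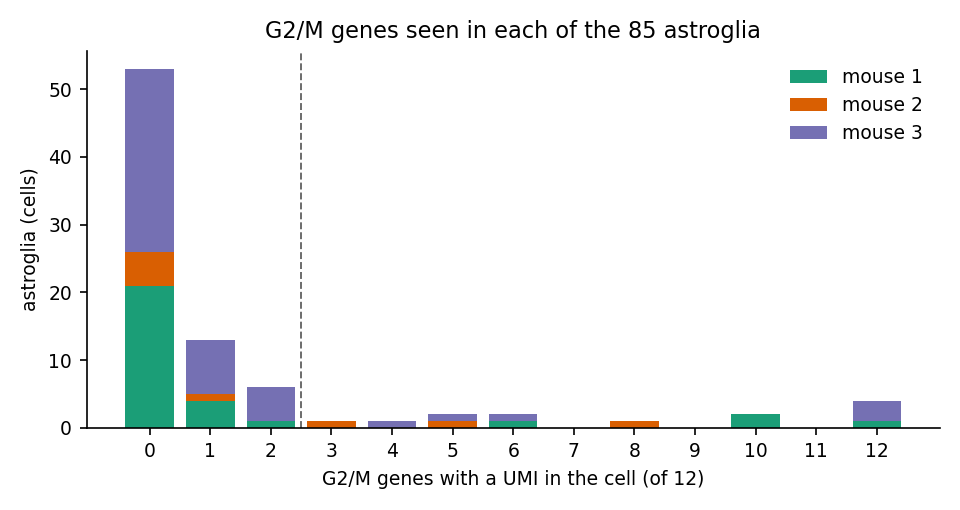
Number of astroglial cells (vertical axis, coloured by mouse) with a UMI of 0 to 12 of the 12 G2 and M phase genes (horizontal axis), with a dashed line below 3 genes. The bar at 0 holds 53 of the 85 cells, and the 13 cells right of the line come from all 3 mice.

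In the summed counts no G2 and M phase gene of the 12 tested was called against the remaining cells, although Hmgb2 and Tpx2 were lower when low genes were kept, and the list stood at 3125 ± 1316 CPM in the astroglia and 3885 ± 529 CPM in the remaining cells (mean ± SD, n = 3 mice). Mki67 was at 496, 117 and 181 CPM against 619, 481 and 357 CPM (-0.82, edgeR adjusted p = 0.177), and was called lower only with at least 6 marker UMIs per cell (-1.27, adjusted p = 0.038). Against granule lineage cells alone, Tpx2 (-1.36) and Hmgb2 (-1.10) were lower and the other 10 were not called, Mki67 among them (-1.004, edgeR adjusted p = 0.0557). Mki67 was called with the mouse as a block (adjusted p = 0.011), with DESeq2 size factors (0.045), with no filter (0.026) and with the upper limit of 4 SD on depth (0.037), and not under the other 6 alternatives (0.058 to 0.33). Leaving out mouse 1 or mouse 2 lost both calls (adjusted p from 0.058 to 0.13) and leaving out mouse 3 that of Tpx2 (0.14).

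Replication genes were lower than in the remaining cells for 4 of 13 tested, with or without the filter, and the list stood at 572 ± 156 CPM against 1333 ± 246 CPM. The ribonucleotide reductase subunit gene Rrm2 was at 24.8, 0 and 25.9 CPM against 188, 144 and 117 CPM (-2.58, edgeR adjusted p = 0.00212), and the thymidylate synthase gene Tyms (-2.17), the helicase gene Mcm7 (-1.72) and the cyclin gene Ccne2 (-2.74) were lower too. With 2 to 10 astroglial UMIs each, all 4 calls depended on single mice. Rrm2 was lost without mouse 1 (-2.39, adjusted p = 0.098) or mouse 3 (-3.21, adjusted p = 0.12), and was called without mouse 2. Tyms was lost without mouse 1 (-1.64, adjusted p = 0.29) or mouse 2 (-2.04, adjusted p = 0.1), and all 5 of its astroglial UMIs were in mouse 3, without which it was called (adjusted p = 0.031). Mcm7 was lost without mouse 2 (-1.51, adjusted p = 0.17) or mouse 3 (-1.005, adjusted p = 0.45) and called without mouse 1 (-3.06, adjusted p = 0.012). Ccne2 was lost without mouse 1 (-2.23, adjusted p = 0.27) or mouse 3 (-1.54, adjusted p = 0.48), and both of its UMIs were in mouse 2, without which it was called (adjusted p = 0.03). With the mouse as a block Tyms, Mcm7 and Ccne2 were not called (adjusted p = 0.064, 0.079 and 0.11).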

How the data were processed

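The authors deposited 1 table of UMI counts for each of 3 Drop-seq libraries, with no normalization and with 16181 genes and 3481 barcodes in all. The submitters' processing notes name STAR and mm10, and the tool that counted UMIs is not given in the sources used here. Cells with at least 500 UMIs and at most 10% mitochondrial UMIs were kept, as in the study's methods, and its upper limit of 4 SD on depth was tried as an alternative. Its minimum number of genes per cell was not applied. No doublet caller was run, but cells with UMIs of the 5 exclusion genes were not members, which removed 20 of 105 candidates. The members, gene lists, cell groups and tests were chosen with earlier results of these data known.

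UMI counts were summed per mouse and cell group and compared with edgeR 4.0.16 in R 4.3.3 (library scaling by TMM, low genes removed by filterByExpr, a robust quasi-likelihood test, and p-values adjusted by Benjamini and Hochberg over every gene of a fit, called under 0.05), with DESeq2 1.42.0 as an alternative. A p-value measures the spread between the 3 mice, since cells of 1 mouse share their source. The same mouse gave both sums of a comparison, so the replicate numbers pair them. The deviations of paired sums correlated by 0.111, 0.0523 and 0.222 in mice 1, 2 and 3 for astroglia against remaining cells, and the fit with the mouse as a block was an alternative. Each mouse was counted as a separate replicate by design. The astroglial sums of any 2 mice differed beyond counting noise (chi-square over its degrees of freedom, 1.40 to 2.15). Sums over few cells can also differ in this way through which cells were caught, so this value does not isolate differences between mice.

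Genes named were those of the lists, together with, among called genes with a mean of at least 300 CPM in the higher group and 1 direction in all 3 mice, the 15 with the largest rise and the 8 with the largest fall against the remaining cells and the 8 of each direction against the oligodendrocyte lineage. Of the 321 genes on the lists 10 were not analysed here, and results of a few others are not reported here. On counts simulated for the comparison with remaining cells, over 6177 genes, the test recovered 62% of 4-fold and 6% of 2-fold changes, with 5.56% of calls false. Bounds for genes without a UMI in 1 group use a floor of 3 UMIs over that group.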

Additional observations from a re-analysis of the deposited data

Results flagged for a closer look

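Barcodes below the depth limit also met the astroglial rule. Of the barcodes with under 500 UMIs and at most 10% mitochondrial UMIs, 14 of 440 in mouse 1, 4 of 368 in mouse 2 and 7 of 209 in mouse 3 did so, which is 3.18, 1.09 and 3.35%. They are given here because they lie outside the measurements of the report and exceed the 3 barcodes that a count of 0 would allow.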

How the results depend on the processing

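The share of astroglia stayed between 2.42 and 4.11% of kept cells under all 10 alternatives. Against the remaining cells, 152 genes were higher and 157 lower with cells thinned to 500 UMIs, 222 and 168 with at least 1000 UMIs per cell, and 409 lower with no filter on low counts, while leaving out 1 mouse gave 140 to 285 higher and 72 to 105 lower. Against the oligodendrocyte lineage, 13 were higher and 8 lower with thinned cells, 112 higher with no filter, 23 lower with DESeq2, and 44 to 59 higher and 20 to 40 lower without 1 mouse. Against granule lineage cells, 90 were higher and 61 lower with thinned cells, 121 lower with DESeq2, and 105 to 120 lower without 1 mouse. For Gdf10-seen against Gdf10-unseen astroglia, the upper limit of 4 SD gave 1 higher gene (Gria1) and 2 lower (Emp2 and Serpine2), and no filter gave 4 lower (Calb1, Car8, Pcp2 and Pcp4). The cause of these changes was not tested, but thinning and leaving out a mouse reduce the UMIs by construction.

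With the mouse as a replicate block, the pairing left 264 higher and 159 lower genes against the remaining cells, 73 and 31 against the oligodendrocyte lineage, 312 and 263 against granule lineage cells, and 0 between Gdf10-seen and Gdf10-unseen cells. The block ended the calls of Rbpj, Fgfr1, Spred1, Rbbp7, Fos, Jun, Tyms, Mcm7 and Ccne2 against the remaining cells and of Nfix against the oligodendrocyte lineage, gave Mki67 a call against granule lineage cells (adjusted p = 0.011), and changed no other call among the named genes followed through the alternatives. Nfib and Rbbp4 against granule lineage cells were not among these.

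Leaving out the deepest cell, chosen after seeing the data, gave 408 higher and 319 lower genes against the remaining cells, of which 323 and 228 were shared with the full set, and no call turned its direction. It ended the call of Nfib against granule lineage cells (edgeR adjusted p = 0.0532). Of the 69 named genes called against the remaining cells, 61 could be tested under all 14 alternatives and 40 of these were called in each. For the 27 followed that were called against the oligodendrocyte lineage and the 11 followed that were called against granule lineage cells, 7 and 2 could be tested under all 10 alternatives, and 6 and 1 were called in each. Thinning ended the calls of Tnnc2, Mylpf, H19, Glul, Rbpj, Rbbp7, Cdkn1a, Hoxa7, Rrm2, Tyms and Ccne2 against the remaining cells, Nfib against the oligodendrocyte lineage and Hmgb2 against granule lineage cells. DESeq2 ended those of Fos, Jun, Mcm7 and Ccne2 against the remaining cells, of Nfia, Nfib and Nfix against the oligodendrocyte lineage and of Cdkn1a and Tpx2 against granule lineage cells. Keeping low genes ended those of Gria4, Fgfr1, Spred1 and Jun, and of Nfia, Nfib and Nfix against the oligodendrocyte lineage. At least 1000 UMIs per cell ended those of Rbpj, Fos, Jun, Mcm7 and Zic1, at least 3 marker UMIs those of Jun, Mcm7 and Ccne2, at least 6 those of Rbpj and Zic1, and no exclusion genes that of Ccne2. Calls gained against the remaining cells were those of Gria2 and Mki67 with at least 6 marker UMIs, Nfib with no exclusion genes, Nes with thinned cells, Gria2 and Nes with the upper limit of 4 SD, and both without the deepest cell. Reversed signs were confined to genes without a call, apart from Fos. Nfia was -0.10 with no filter, -0.031 with thinned cells, -0.0033 with at least 6 marker UMIs and between -0.13 and 0.27 without 1 mouse. Sept4 was -0.12 with no filter and -0.044 with thinned cells, Psat1 was -0.11 with at least 1000 UMIs per cell, and Gria2 was 0.033 with at least 3 marker UMIs. Without 1 mouse, Eed ran from -0.99 to 0.50, Fos from -0.68 to 1.71, Ptprz1 against the oligodendrocyte lineage from -0.42 to 0.16 and Cdkn1c against granule lineage cells from -0.60 to 0.087. With Hopx in place of Gdf10, Hes5 was 0.10. The median log2 change of all genes tested against the remaining cells moved by -0.209 with thinned cells, -0.481 with no filter, -0.199 without mouse 3 and -0.105 with at least 6 marker UMIs. With 8578 astroglial UMIs, mouse 2 limits what can be said of genes under 350 CPM.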

Other observations

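Among genes of ventricular zone and white matter progenitors, Kirrel2 and Nes were tested against the remaining cells by edgeR's quasi-likelihood test. Kirrel2, a cell adhesion gene, was at 149, 117 and 86.4 CPM in the astroglia of mice 1, 2 and 3 and at 25.1, 3.52 and 27.3 CPM in the remaining cells (log2 fold change 2.35, adjusted p = 0.000452). All 3 astroglial values of Kirrel2 lay above all 3 remaining values, and its call was lost without mouse 2 (2.004, adjusted p = 0.051). Nes, an intermediate filament gene of progenitors, was at 223, 583 and 173 CPM against 114, 91.6 and 118 CPM and did not pass the test (1.01, adjusted p = 0.0946), but did so without the deepest cell (1.23, adjusted p = 0.0206).

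Early response genes, which dissociation can induce, were uneven between the mice. Fos was at 124, 350 and 795 CPM in the astroglia against 198, 270 and 130 CPM in the remaining cells (1.34, adjusted p = 0.00207), and its sign turned without mouse 3 (-0.68, adjusted p = 0.66). The call of Fos was also lost without mouse 2 (adjusted p = 0.3), with DESeq2 (0.41), with the mouse as a block (0.092) and with at least 1000 UMIs per cell (0.058). Jun was higher by 1.01 (adjusted p = 0.0392), a call lost without any 1 mouse (adjusted p from 0.066 to 0.68), and the other 5 tested genes of this list were not called.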
